A study of Arabidopsis thaliana with 12 samples.

Results

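The 10 core genes of the circadian clock of Arabidopsis were followed in leaves of plants held in continuous light. They were taken by locus identifier from the gene table, 10 of 32954 genes: *CCA1* (AT2G46830), *LHY* (AT1G01060), *PRR9* (AT2G46790), *PRR7* (AT5G02810), *PRR5* (AT5G24470), *TOC1* (AT5G61380), *GI* (AT1G22770), *ELF3* (AT2G25930), *ELF4* (AT2G40080) and *LUX* (AT3G46640). The rule names loci and uses no level or fold change, although the set was picked with earlier results of these data known, and all 10 passed the filter on low levels.

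The plant clock is a network of genes that mostly repress one another in turn through the day. *CCA1* and *LHY* are closely related MYB transcription factors that peak around dawn and repress genes expressed later. The pseudo-response regulators *PRR9*, *PRR7* and *PRR5* follow in sequence through the day and repress *CCA1* and *LHY*, and *TOC1* does so in the evening. *GI* is a large protein that stabilises the photoreceptor *ZTL*, which targets *TOC1* for degradation. *ELF3*, *ELF4* and *LUX* form the evening complex, a repressor that acts in the early night. Without day and night the rhythm runs free, so that the level found in a sample depends on the phase at which the plants were harvested.

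Leaf mRNA was sequenced from 3 genotypes of the ecotype Col-0, with 4 biological replicates each, to learn how the plastid glucose transporter *pGlcT2* affects plants in extended light. The groups were wild types, the overexpressor #5 (1 line, which carries *pGlcT2* under the 35S promoter of cauliflower mosaic virus and is described as having been made on the basis of *glct2* plants), and *glct2* (1 T-DNA insertion line, SALK_052078). All plants had grown for 24 days in short days and then for 10 to 12 days in continuous light of 100 to 120 µmol quanta m-2 s-1. Each genotype was sampled once. Harvest at midday is stated for plants of the growth and sugar measurements and not for the RNA samples, and no time course was taken, so a shifted phase, a changed amplitude and a changed mean level cannot be told apart.

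The label of each genotype was checked on *pGlcT2* itself, in FPKM (reads scaled for gene length and for a size set per library). It stood at 9.31 ± 0.771 FPKM in wild types, at 206 ± 25.1 in the overexpressor and at 3.09 ± 0.554 in *glct2* (mean ± SD, n = 4). Depth was 17448191 to 24276381 reads in genes per library, at which 1 read in a gene of 1 kilobase is worth 0.0425 to 0.0553 FPKM. Of the markers of other tissues, 4 root genes summed to at most 0.281 FPKM in every library. The 5 flower organ genes had summed levels of 1.26 to 2.62 FPKM in wild types, against 2.19 to 6.77 for the overexpressor and 1.65 to 3.35 for *glct2*. The 4 leaf genes *RBCS1A*, *RCA*, *CA1* and *LHCB1.3*, which photosynthetic leaf cells express strongly, together reached 23788 to 34207 FPKM in wild types, 16117 to 24755 in *glct2* and 10215 to 14206 in the overexpressor. The 2 phloem genes *SUC2* and *APL* together reached 82.0 to 113 FPKM in wild types, 104 to 132 in *glct2* and 111 to 156 in the overexpressor. Summed levels of 3 guard cell genes were 9.21 to 12.7 FPKM (wild types), 8.25 to 12.9 (overexpressor) and 7.41 to 10.9 (*glct2*). Those of 3 shoot meristem genes were 6.65 to 10.6, 5.24 to 6.75 and 4.97 to 8.22, listed alike. By limma against wild types, the overexpressor had 3 leaf genes and 1 guard cell gene lower, and 1 phloem gene higher. In this comparison 38.6% of all tested genes passed, 18.7% higher and 19.9% lower. Of the flower and meristem genes only *AP1* and *STM* were tested, and neither passed. For *glct2* no gene of these lists passed, where 4.57% of all tested genes did. The part of these markers in the changes of the clock genes was not tested. In leaf RNA, fewer cells that express a gene and less of its mRNA per cell cannot be told apart.

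The regulatory letters through which these genes are known to act on each other were looked for in 9 of the genes, in the 300 bases around the gene start, from 250 bases before it to 50 after it (RefSeq, TAIR10.1; all 10 genes start and end there at the same positions as in the deposited table). *CCA1* and *LHY* bind the evening element, AAAATATCT, which was searched on both strands. It lay in 4 of the 9 windows, in 2.64% of 32667 windows of all genes and in 3.03% of those of tested genes. Of the 4 genes, *PRR9*, *PRR5* and *TOC1* were not called against wild types in either mutant, and *LUX* was called in the overexpressor. Whether the element bears on these levels was not tested. It begins at position 27 after the gene start in *PRR9*, and at -187 in *PRR5*, -151 in *TOC1* and -53 in *LUX*. Each stretch is printed 5′ to 3′ on the strand of the gene with 12 bases on either side. The capitals mark the element or its reverse complement, AGATATTTT.
PRR9, chr2:19232621-19232653, plus strand: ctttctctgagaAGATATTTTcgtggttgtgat
PRR5, chr5:8358713-8358745, minus strand: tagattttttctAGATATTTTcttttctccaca
TOC1, chr5:24674800-24674832, plus strand: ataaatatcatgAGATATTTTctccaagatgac
LUX, chr3:17182977-17183009, plus strand: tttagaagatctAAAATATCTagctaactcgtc

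*LHY* had the largest fall of the 10 genes, and its whole window is printed (chr1:37822-38121, minus strand). The capitals mark the G-box CACGTG, a site bound by light-signalling bHLH and bZIP factors, which begins at position -80 from the gene start.
LHY: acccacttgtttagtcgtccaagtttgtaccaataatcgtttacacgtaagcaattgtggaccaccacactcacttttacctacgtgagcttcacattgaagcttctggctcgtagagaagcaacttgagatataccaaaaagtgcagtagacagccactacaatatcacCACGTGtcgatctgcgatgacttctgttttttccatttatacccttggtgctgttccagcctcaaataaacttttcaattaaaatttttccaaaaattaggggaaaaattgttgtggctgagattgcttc

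The G-box stood in 5 of the 9 windows (*CCA1*, *LHY*, *PRR9*, *PRR7* and *LUX*), in 7.12% of all windows and in 8.90% of those of tested genes. The LUX-binding site, GATACG or GATTCG, stood in 2 (*PRR9* and *ELF3*), and in 14.5% and 15.1% in the same order. The related CCA1-binding site AAAAATCT was found in *PRR5* alone of the 9, in 7.48% of all windows and in 8.13% of those of tested genes. In *GI* none of these letters occurred within the window. Both strands were searched throughout, no 2 matches overlapped, and a match describes letters only, not a site that was shown to be bound.

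Against wild types, the overexpressor had less mRNA of both dawn genes and more of *GI* and of 2 of the 3 evening complex genes, while the pseudo-response regulators and *TOC1* did not pass the test. On the log2(FPKM + 1) scale *LHY* fell by 1.99 and *CCA1* by 0.74, and *ELF4* rose by 1.26, *GI* by 0.73 and *LUX* by 0.43. Thus 5 of the 10 genes passed a limma test with Benjamini-Hochberg adjustment over the 18354 genes tested, 3 higher and 2 lower. In this comparison 38.6% of all tested genes passed (18.7% higher and 19.9% lower), which is the background against which the 5 stand. The same 5 genes had no overlap between the libraries of the 2 genotypes, as had 34.5% of all tested genes (15.9% higher and 18.5% lower). With the library size set to the recovered reads, 7 of the 10 passed, and the calls over all genes shifted from 3441 higher and 3646 lower to 5788 higher and 2436 lower. In *glct2*, by contrast, 0 of the 10 passed the limma test and 1 had an unadjusted p under 0.05, where 4.57% of all tested genes passed (1.95% higher and 2.62% lower). The count was 1, *LHY*, without wild-type replicate 2, with quality weights or with a replicate block.

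**Figure D1:**
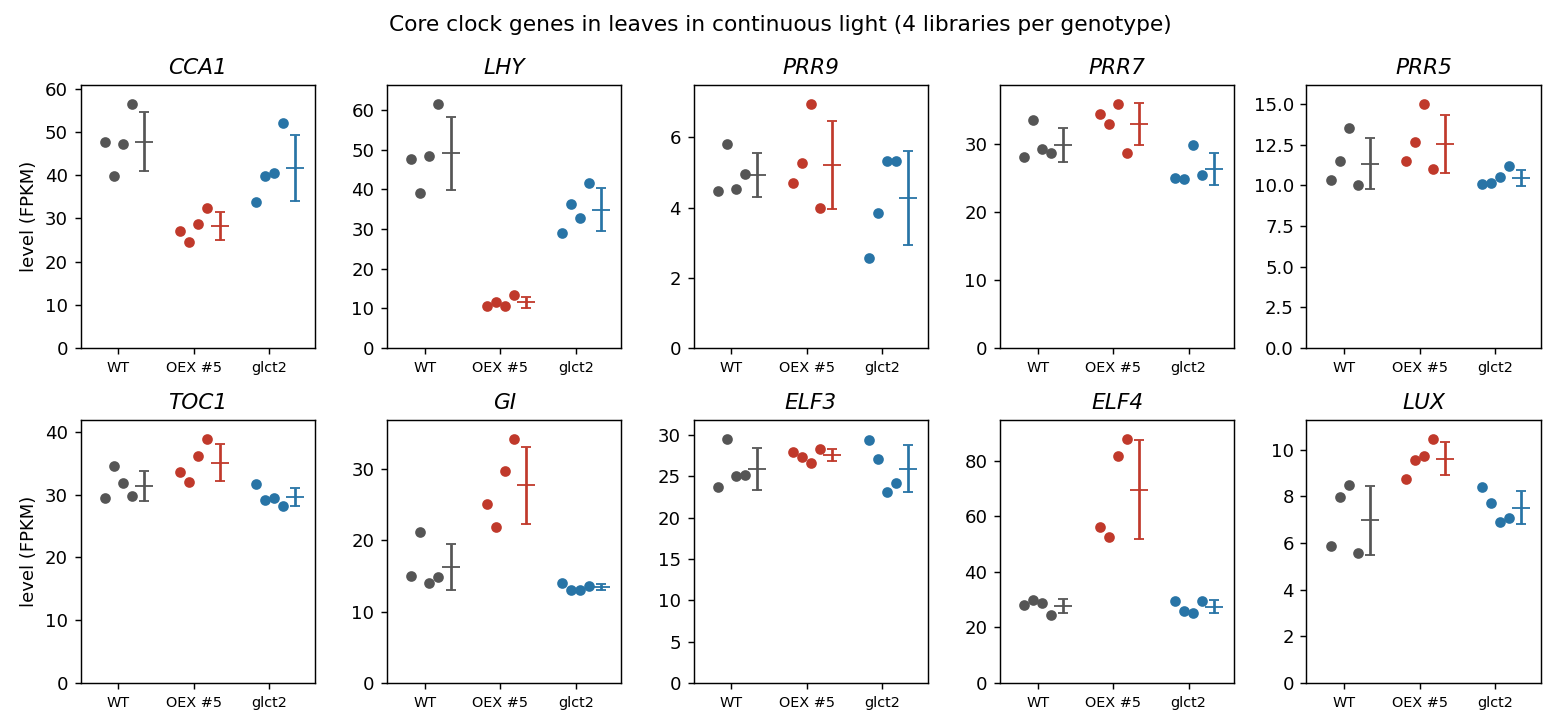
Level in FPKM (vertical axes, each starting at 0) of the 10 core clock genes in wild types (WT), the overexpressor (OEX #5) and *glct2*. Points are the 4 libraries of a genotype and the bar beside them is their mean ± SD; *LHY* lies at 39.1 to 61.4 FPKM in wild types and at 10.5 to 13.4 in OEX #5.

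*LHY* and *CCA1* had the highest levels of the 10 in wild types, *LHY* with 47.6, 39.1, 48.5 and 61.4 FPKM in replicates 1 to 4 (mean 49.1 ± 9.20). The overexpressor held 10.5, 11.6, 10.7 and 13.4 FPKM (11.6 ± 1.35), and *glct2* held 29.0, 36.2, 32.7 and 41.6 (34.9 ± 5.36). All 4 overexpressor libraries therefore lay below every library of the other genotypes, whereas the highest *glct2* library reached into the range of wild types. In the overexpressor mean FPKM of *LHY* dropped by 76.5%, and the log2 fold change was -1.99 (SE 0.14, limma adjusted p = 1.53e-06). In *glct2* the log2 fold change was -0.48 (SE 0.14), with an adjusted p of 0.0670 by limma and a 95% interval of -0.77 to -0.18 that is not adjusted for the number of genes. Without wild-type replicate 2, the lowest of its group, the same limma fit gave -0.58 and an adjusted p of 0.0386 for *glct2*. It also passed in limma with all 12 libraries under quality weights (-0.52, adjusted p = 0.0230) and with a replicate block (-0.48, adjusted p = 0.0337).

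*CCA1*, the partner of *LHY*, stood at 47.6, 39.8, 47.1 and 56.3 FPKM in wild types (47.7 ± 6.75). Its values were 27.1, 24.6, 28.7 and 32.3 FPKM in the overexpressor (28.2 ± 3.25) and 33.8, 39.8, 40.6 and 52.1 in *glct2* (41.6 ± 7.62). Here too the overexpressor libraries were all lower than all others, and those of *glct2* and wild types overlapped. The fall in the overexpressor was 41.0% of mean FPKM, a log2 fold change of -0.74 (SE 0.13, limma adjusted p = 0.00099), and the *glct2* value was -0.20 (SE 0.13, limma adjusted p = 0.402).

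Within a library the 2 dawn genes shifted against each other. The ratio of *CCA1* to *LHY* in FPKM was 0.978 ± 0.0446 in wild types (range 0.918 to 1.02), 2.45 ± 0.249 in the overexpressor (2.12 to 2.68) and 1.19 ± 0.0714 in *glct2* (1.10 to 1.25). The 3 ranges did not overlap: *LHY* was about level with *CCA1* in wild types, lower than *CCA1* in every *glct2* library and lowest against it in the overexpressor. These ratios were chosen after the levels were seen, and carry no test.

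None of the 3 day-phase repressors passed the test in either mutant. *PRR9*, the first of the series, had the lowest level of all 10 genes in each genotype, with 4.47 to 5.82 FPKM in wild types, against 4.00 to 6.93 for the overexpressor and 2.57 to 5.34 for *glct2*. *PRR5*, the last of the 3, lay at 10.0 to 13.5, 11.0 to 15.0 and 10.1 to 11.2 FPKM in the same order. For both the groups overlapped in each comparison with wild types, with log2 fold changes of 0.05 (SE 0.18) and 0.13 (SE 0.10) in the overexpressor and of -0.21 (SE 0.18) and -0.10 (SE 0.10) in *glct2*.

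*PRR7*, the most abundant of the 3, was measured at 28.1, 33.5, 29.2 and 28.7 FPKM in wild types (29.9 ± 2.45). The overexpressor had 34.4, 32.9, 35.8 and 28.6 FPKM (32.9 ± 3.11), and *glct2* had 25.0, 24.9, 29.8 and 25.4 (26.3 ± 2.36). Neither mutant passed the test against wild types, with log2 fold changes of 0.13 (SE 0.08, limma adjusted p = 0.229) in the overexpressor and -0.18 (SE 0.08, limma adjusted p = 0.235) in *glct2*, the first higher and the second lower. The unadjusted 95% intervals were -0.05 to 0.32 and -0.36 to 0.0044.

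*TOC1*, the evening counterpart of the dawn genes, had the smallest residual spread of the 10. Its values were 29.5, 34.6, 31.8 and 29.8 FPKM in wild types (31.4 ± 2.35), 33.5, 32.0, 36.1 and 38.8 in the overexpressor (35.1 ± 3.02) and 31.7, 29.2, 29.5 and 28.2 in *glct2* (29.6 ± 1.46). The overexpressor and wild types overlapped, with a log2 fold change of 0.16 (SE 0.07, limma adjusted p = 0.108), as did *glct2* and wild types, with -0.08 (SE 0.07, limma adjusted p = 0.567). Leaving out wild-type replicate 2 or overexpressor replicate 2 brought the overexpressor's limma adjusted p to 0.0468 or 0.0487, with log2 fold changes of 0.20 in both.

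*GI*, which links the clock to *ZTL* and to flowering, gained mRNA in the overexpressor. It stood at 25.1, 21.9, 29.8 and 34.2 FPKM there (27.8 ± 5.40), at 15.0, 21.2, 14.1 and 14.9 in wild types (16.3 ± 3.29) and at 14.0, 13.1, 13.1 and 13.7 in *glct2* (13.5 ± 0.470). The overexpressor exceeded wild types in every library, although wild-type replicate 2 came within 1 FPKM of the lowest overexpressor library. Mean FPKM was 1.71-fold that of wild types, and the log2 fold change was 0.73 (SE 0.14, limma adjusted p = 0.00136). In *glct2* every library lay below every wild-type library, yet the log2 fold change of -0.24 (SE 0.14) did not pass the limma test (adjusted p = 0.336); among all tested genes 16.9% had no overlap of libraries in this comparison (7.5% higher and 9.43% lower), and among the clock genes *GI* alone.

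*ELF4*, the small evening complex protein that binds *ELF3*, had the largest rise. Its mRNA was at 28.0, 29.9, 28.8 and 24.2 FPKM in wild types (27.7 ± 2.46), and at 29.4, 25.9, 25.2 and 29.4 in *glct2* (27.5 ± 2.23). In the overexpressor it reached 56.2, 52.6, 81.7 and 87.7 FPKM (69.5 ± 17.7). The lowest of these was thus well above the highest of the other 8 libraries, and replicates 3 and 4 stood apart from replicates 1 and 2. The mean was 2.51-fold that of wild types, with a log2 fold change of 1.26 (SE 0.15, limma adjusted p = 5.15e-05). The *glct2* value of -0.01 (SE 0.15) had an unadjusted 95% interval of -0.34 to 0.31.

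*LUX*, the DNA-binding subunit, rose less. The overexpressor had 8.76, 9.54, 9.73 and 10.5 FPKM (9.62 ± 0.698), against 5.86, 7.98, 8.50 and 5.57 in wild types (6.98 ± 1.48) and 8.42, 7.70, 6.91 and 7.06 in *glct2* (7.52 ± 0.690). No overexpressor library overlapped with either other genotype, but the gap to the nearest wild-type library was small. The mean was 1.38-fold that of wild types, with a log2 fold change of 0.43 (SE 0.12, limma adjusted p = 0.0123), and *glct2* gave 0.11 (SE 0.12, limma adjusted p = 0.629).

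*ELF3*, the scaffold of the complex, did not pass the test in either mutant. Wild types held 23.7 to 29.5 FPKM of it, the overexpressor 26.6 to 28.3 and *glct2* 23.1 to 29.4, so that the 3 ranges overlapped. The log2 fold changes were 0.09 (SE 0.08) and 0.0031 (SE 0.08), and the unadjusted 95% interval for the overexpressor ended at 0.27, below the log2 fold changes measured for *ELF4* and *LUX*; the difference between the genes was not tested. *ELF3* overlaps 2 genes on the opposite strand, which did not exceed 1.60 FPKM in any library, and *LUX* overlaps 1, at no more than 0.154 FPKM; the counting strand is not given in the sources used here.

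**Figure D2:**
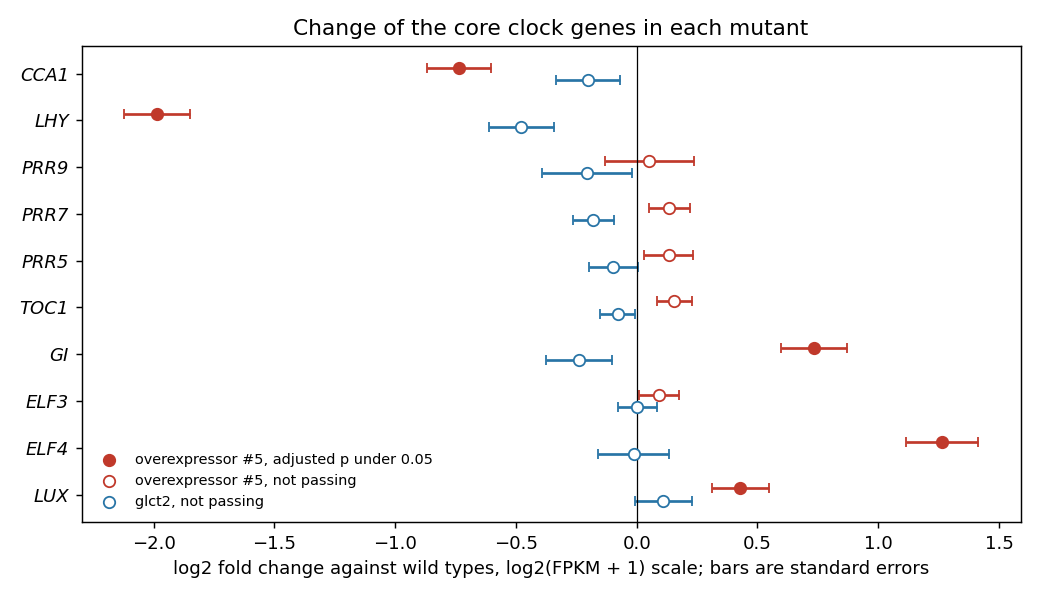
Log2 fold change against wild types (horizontal axis, log2(FPKM + 1) scale) of the 10 core clock genes in the overexpressor (red) and in *glct2* (blue), with standard errors as bars and filled points for limma adjusted p under 0.05. *LHY* (-1.99) and *CCA1* (-0.74) lie furthest to the left and *ELF4* (1.26) furthest to the right; no *glct2* point is filled. Both comparisons use the same wild-type libraries.

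The median log2 fold change of the 10 genes was 0.13 in the overexpressor and -0.14 in *glct2*, beside 0.0033 and 0.0017 over all tested genes. In *glct2*, 8 of the 10 point values were negative and *LHY* alone had an unadjusted p under 0.05 (0.00427 by limma). Both comparisons rest on the same 4 wild-type libraries, so a shared direction of the 2 mutants, as seen for *LHY* and *CCA1*, is not independent.

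The order of the genes by level differed between the genotypes, FPKM being a scale per length. In wild types the dawn genes *LHY* and *CCA1* led and did not differ beyond their spread, and *TOC1* followed below both. *TOC1*, *PRR7*, *ELF4* and *ELF3* then overlapped each with its neighbour, and *GI*, *PRR5* and *LUX* each stood clear of the gene above. In the overexpressor *ELF4* led at 69.5 FPKM, clear of *TOC1* at 35.1. *TOC1*, *PRR7*, *CCA1*, *GI* and *ELF3* formed a run of overlapping neighbours between 27.5 and 35.1, and *LHY* came eighth of the 10, overlapping with *PRR5*. In *glct2* the dawn genes again came first, with *CCA1* ahead of *LHY*, and *TOC1* overlapped with *LHY*.

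Set against *TOC1* within the same library, *CCA1* was 1.54 ± 0.307 in wild types, 0.801 ± 0.0267 in the overexpressor and 1.41 ± 0.321 in *glct2* (ratio of FPKM, mean ± SD, n = 4). *LHY* over *TOC1* was 1.58 ± 0.382, 0.329 ± 0.0309 and 1.18 ± 0.235 in the same order. *ELF4* over *LHY* was 0.586 ± 0.151, 6.02 ± 1.36 and 0.802 ± 0.145. In every overexpressor library both dawn genes were below *TOC1*, and in every wild-type library both were above it. With *glct2*, *CCA1* exceeded *TOC1* in all 4 libraries, and *LHY* did so in all except replicate 1, where the ratio was 0.915.

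**Figure D3:**
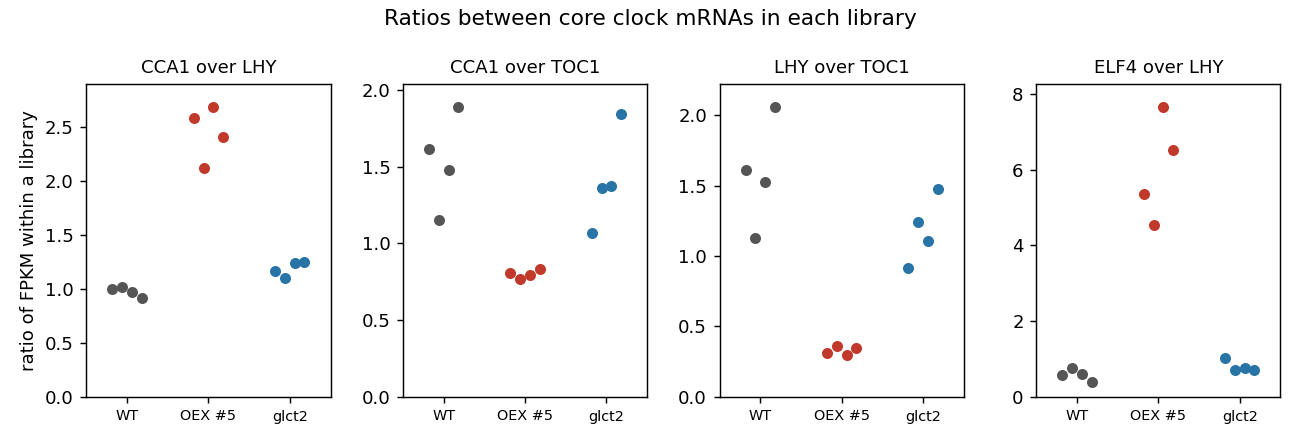
Ratios of FPKM between core clock mRNAs within each library (vertical axes from 0), for the 4 libraries of wild types, the overexpressor and *glct2*. *ELF4* over *LHY* spans 4.53 to 7.66 in the overexpressor and 0.395 to 1.01 in the other 8 libraries.

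The overexpressor was also set directly against *glct2*, the comparison of more transporter with less. Here 6 of the 10 genes passed the limma test, 4 higher and 2 lower, where 33.5% of all tested genes did (15.9% higher and 17.7% lower). Libraries did not overlap for 6 of the 10, and for 32.4% of all tested genes (15.4% higher and 16.9% lower). The 4 genes at the ends of the range were those seen against wild types: *LHY* fell by 1.51 (SE 0.14, limma adjusted p = 2.93e-05), *CCA1* fell by 0.53 (SE 0.13, 0.0087), *ELF4* rose by 1.28 (SE 0.15, 0.000113) and *GI* rose by 0.97 (SE 0.14, 0.000357), all on the log2 scale. *PRR7* was higher by 0.31 (SE 0.08, limma adjusted p = 0.0134) although the ranges of the libraries overlapped, and *TOC1* by 0.23 (SE 0.07, limma adjusted p = 0.0254) with no overlap. The call of *TOC1* was lost without overexpressor replicate 3 or 4 or *glct2* replicate 2 or 4, with limma adjusted p-values of 0.0608 to 0.0676, and with the replicate number as a block (0.0584), which left 5 of the 10 called. Same-numbered overexpressor and *glct2* libraries deviated together in all 4 pairs, with correlations of 0.12 to 0.18. *LUX* gave 0.32 (SE 0.12, limma adjusted p = 0.0534) with no overlap of libraries, and passed in 9 of 24 alternatives, among them the 2 groups alone (0.0167), quantile normalization (0.0339) and the omission of wild-type replicate 2, 3 or 4 (0.0487, 0.0352 and 0.0374). *PRR5* (0.23, SE 0.10), *PRR9* (0.26, SE 0.18) and *ELF3* (0.09, SE 0.08) did not pass.

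The spread between replicates was wide for some of these genes. The residual SD on the log2 scale, over all 3 genotypes, was 0.23 for *ELF4*, 0.22 for *GI*, 0.21 for both dawn genes and 0.29 for *PRR9*, larger than in 82.4 to 87.1% of the 1000 tested genes nearest to each in level. *TOC1*, at 0.10, exceeded 36.4% of its 1000 neighbours, and *PRR7* and *ELF3*, both at 0.12, exceeded 55.2 and 52.9%. The share for *LUX* was 71.7%. These values pool the genotypes, which differed: the coefficient of variation of *ELF4* was 8.88% in wild types, 8.14% in *glct2* and 25.5% in the overexpressor, and that of *GI* was 20.2, 3.49 and 19.4%.

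Deviations of the libraries from the mean of their genotype were compared between the genes in pairs, 45 in all, by an exact permutation test within genotypes (n = 12, two-sided). After Benjamini-Hochberg adjustment over the 45 pairs 0 passed, and 8 had an unadjusted exact permutation p under 0.05. *CCA1* and *LHY* came first, with Pearson's r = 0.88 (exact permutation p = 0.00282, adjusted 0.127), Spearman's rho = 0.73 (exact permutation p = 0.0195, adjusted 0.172) and r = 0.83 without the 2 libraries most distant from the median. Next was *TOC1* with *GI*, with r = 0.86 (exact permutation p = 0.00593, adjusted 0.133), rho = 0.75 (exact permutation p = 0.0320, adjusted 0.180) and r = 0.66 without 2 libraries. *CCA1* with *TOC1*, the dawn and evening repressors of each other, gave r = -0.23 (exact permutation p = 0.477, adjusted 0.796), rho = -0.18 (exact permutation p = 0.588) and r = 0.047 without 2 libraries, so its sign rested on those 2. Within each genotype there are only 4 libraries, too few for a value of its own.

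**Figure D4:**
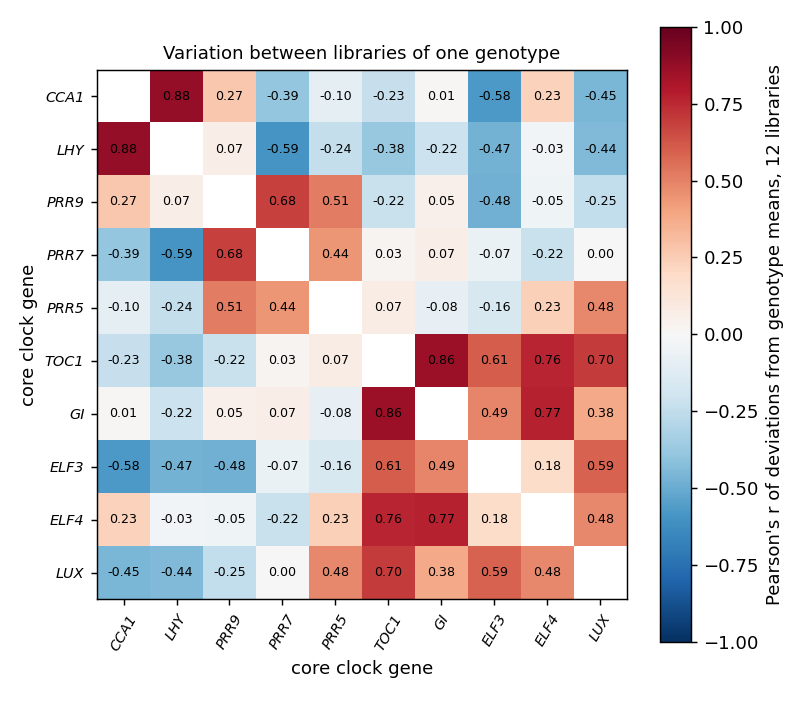
Pearson's r between the deviations of 2 core clock genes from their genotype means over 12 libraries (colour and printed value; blue negative, red positive). *CCA1* with *LHY* (0.88) and *TOC1* with *GI* (0.86) are the highest of the 45 pairs, none of which passed after adjustment.

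Of 31 other genes assigned to the clock network, 30 were tested. In the overexpressor 7 rose and 7 fell, a share of 46.7% beside 38.6% of all tested genes. *PRR3*, a relative of *TOC1* that protects it from *ZTL*, rose from 14.9 ± 1.77 to 25.6 ± 1.22 FPKM (0.75 on the log2 scale, SE 0.08, limma adjusted p = 2.78e-05). *RVE1*, a MYB factor related to the dawn genes that promotes auxin synthesis, fell from 11.9 ± 2.68 to 4.70 ± 0.230 FPKM (-1.15, SE 0.13, limma adjusted p = 4.05e-05). *RVE8*, another MYB relative that activates evening genes, and *LNK2*, its coactivator, fell as well, from 29.8 ± 2.66 to 19.8 ± 1.35 and from 78.2 ± 11.0 to 41.6 ± 2.14 FPKM, with log2 fold changes of -0.57 (SE 0.08) and -0.88 (SE 0.12) and limma adjusted p-values of 0.000133 and 0.000106. All 4 had no overlap of libraries with wild types. In *glct2* 0 of the 30 passed the limma test, beside 4.57% of all tested genes, and 9 had an unadjusted p under 0.05. The count was 1 to 4 in 8 of 24 alternatives, with 4 when the recovered reads set the library size, 3 with quality weights, and 1 without wild-type replicate 2, overexpressor replicate 4 or *glct2* replicate 4. *ELF4-L4*, a relative of *ELF4*, had the lowest adjusted p, at 0.27 (SE 0.07, limma adjusted p = 0.0532), and passed in 5 of 24 alternatives (lowest 0.0260).

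Light reaches the clock through phytochromes and cryptochromes, and 13 genes of these and their signalling partners were tested. The overexpressor had 4 higher and 5 lower, 69.2% of the list beside 38.6% of all tested genes. The blue-light receptor *CRY1* fell from 73.3 ± 3.57 to 47.5 ± 2.10 FPKM (-0.62, SE 0.06, limma adjusted p = 1.92e-05) and the far-red receptor *PHYA* from 21.7 ± 1.66 to 15.1 ± 1.13 (-0.49, SE 0.07, 0.000283). The red-light receptor *PHYB* rose from 29.0 ± 2.33 to 38.4 ± 2.65 FPKM (0.39, SE 0.07, limma adjusted p = 0.000816), and the UV-B receptor *UVR8* from 51.9 ± 2.22 to 65.4 ± 1.18 (0.33, SE 0.05, 0.000261). In *glct2* 1 of the 13 passed (7.69%, beside 4.57% of all tested genes): *CRY2*, the second cryptochrome, fell from 73.2 ± 2.41 to 62.7 ± 3.50 FPKM (-0.22, SE 0.06, limma adjusted p = 0.0497). This call was lost in 18 of 24 alternative settings, among them the omission of any single wild-type or *glct2* library, where the adjusted p was 0.0665 to 0.150.

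Among the outputs, genes whose expression or function is set by the clock, 12 of 15 were tested. In the overexpressor 3 rose and 5 fell, 66.7% of the list where 38.6% of all tested genes passed. In *glct2* 1 fell, 8.33% where 4.57% of all passed, and the count was 2 or 3 in 8 of 24 alternatives, among them the omission of wild-type replicate 2 or of overexpressor replicate 1 or 3 (2 each). *FT*, the mobile flowering signal that long days induce, stood at 18.9 ± 5.02 FPKM in the overexpressor, 1.76 ± 0.406 in wild types and 0.736 ± 0.335 in *glct2*. Its rise was 2.83 on the log2 scale (SE 0.18, limma adjusted p = 1.10e-06). The summed flower organ markers spanned 2.19 to 6.77 FPKM in the overexpressor and 1.26 to 2.62 in wild types, ranges that overlapped. Their relation to *FT* was not tested. *PIL1*, a bHLH factor of shade responses, rose from 4.28 ± 0.823 to 11.4 ± 2.23 FPKM (1.22, SE 0.14, limma adjusted p = 3.66e-05). *CDF2*, a repressor of flowering that *GI* helps to remove, fell from 13.9 ± 0.462 to 8.22 ± 1.15 FPKM (-0.71, SE 0.08, limma adjusted p = 5.86e-05).

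*CAT3*, an evening-phased catalase, was the output that passed in both mutants. It stood at 2388, 2348, 1898 and 2126 FPKM in wild types, 726, 752, 798 and 635 in the overexpressor and 1245, 1093, 976 and 1138 in *glct2*. The 3 genotypes did not overlap, wild types being highest and the overexpressor lowest. Log2 fold changes were -1.59 (SE 0.13, limma adjusted p = 4.86e-06) in the overexpressor and -0.98 (SE 0.13, limma adjusted p = 0.00172) in *glct2*, and quantile normalization reduced the latter to -0.50 and its limma adjusted p to 0.131.

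**Figure D5:**
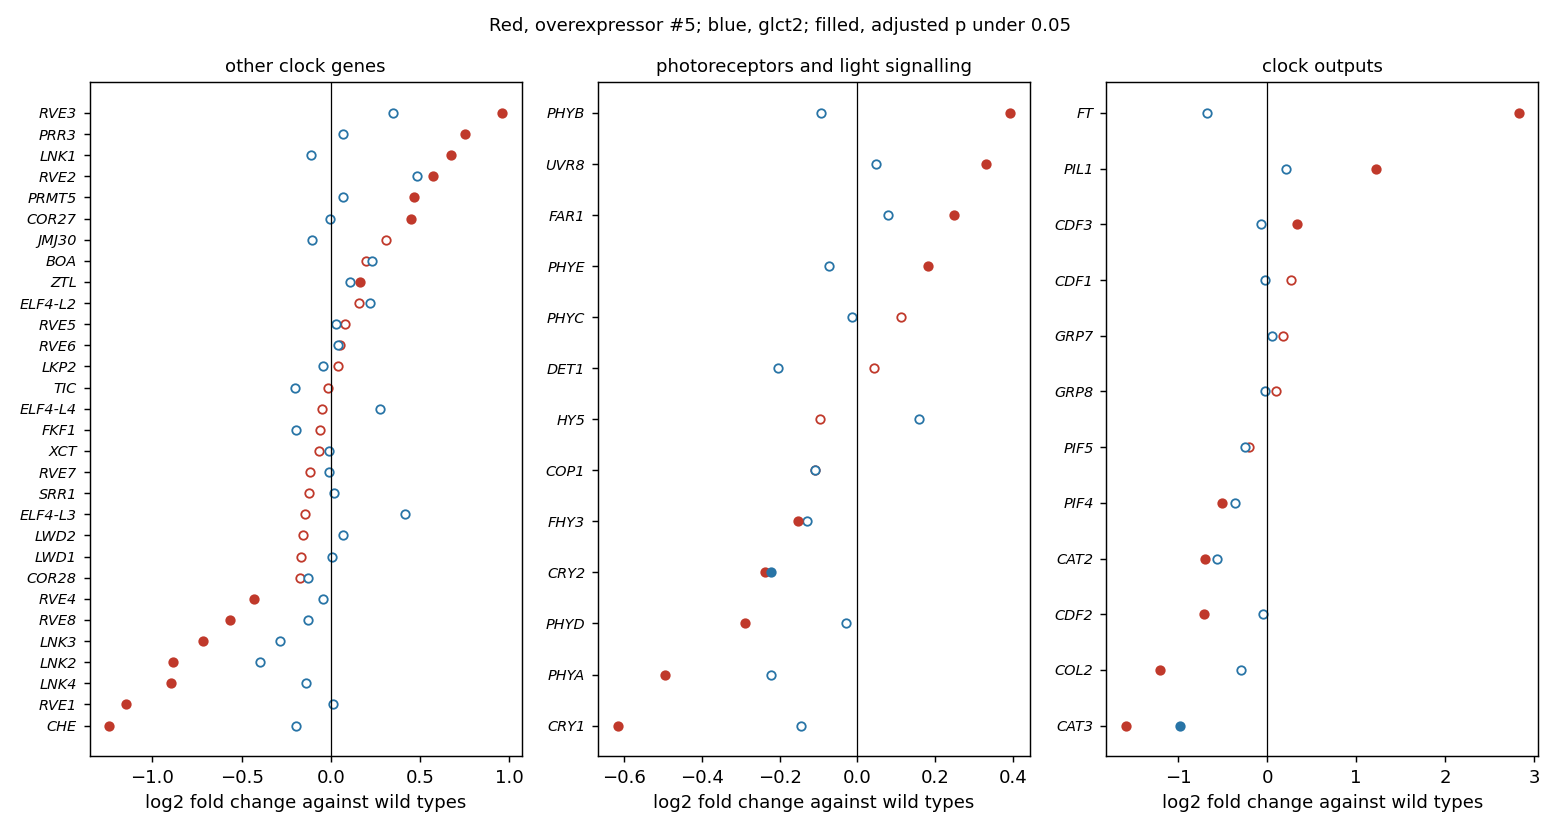
Log2 fold change against wild types (horizontal axes, which differ in range) of other clock genes, light-signalling genes and clock outputs in the overexpressor (red) and *glct2* (blue), filled where the limma adjusted p is under 0.05. *FT* (2.83) lies furthest to the right and *CAT3* is filled in both colours; both comparisons use the same wild-type libraries.

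Sugars act on the clock through the kinase *KIN10*, trehalose phosphate made by *TPS1*, and the transcription factor *bZIP63*, which activates *PRR7*. Of these 3 genes 1 passed in the overexpressor, 33.3% beside 38.6% of all tested genes. It was *bZIP63*, which fell from 8.16 ± 2.78 to 2.82 ± 0.529 FPKM (-1.21, SE 0.21, limma adjusted p = 0.000863). *PRR7* was at 32.9 ± 3.11 FPKM there and at 29.9 ± 2.45 in wild types. A link between *bZIP63* and *PRR7* was not tested. In *glct2* none of the 3 passed, beside 4.57% of all tested genes, and none had an unadjusted p under 0.05. *KIN10*, with the lowest p, was at -0.13 (SE 0.10, limma adjusted p = 0.518).

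Of 5 genes commonly used as references for expression, 2 passed in the overexpressor, 40% beside 38.6% of all tested genes. *ACT2* fell from 238 ± 19.6 to 139 ± 6.66 FPKM there (-0.77, SE 0.08, limma adjusted p = 1.56e-05). *UBQ10* was at -0.36 (SE 0.10, limma adjusted p = 0.0140) there, a direction that turned to 0.18 under quantile normalization. In *glct2* 0 of the 5 passed, beside 4.57% of all tested genes, and 1 had an unadjusted p under 0.05. *PDF2*, with the lowest p, was at -0.13 (SE 0.05, limma adjusted p = 0.145).

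The tested genes most like *CCA1* in level over the 12 libraries, which share genotype and depth, were the amino acid transporter *CAT8* (r = 0.96), AT1G01440, *CLE26*, a signalling peptide gene (both 0.95), and AT1G10740 (0.95). For *TOC1* they were *CYP89A9* (r = 0.96), a cytochrome P450 of chlorophyll breakdown, *WDR26* (0.95), the cytokinin oxidase *CKX7* (0.94) and AT5G08500 (0.94). With genotype means removed, *iqd9* and *AAF* (both 0.92), AT3G26720 (0.91) and the thylakoid kinase *STN7* (0.90) came nearest to *CCA1*, and AT5G47620 (0.98), AT4G38060 (0.95), the metallothionein *MT2A* and *AtRABH1a* (both 0.94) to *TOC1*. Core clock genes were left out of these rankings, so none could appear among the first 4. With genotype means removed, the closest core genes reached r = 0.88 (*LHY* with *CCA1*) and 0.86 (*GI* with *TOC1*), below the genes named. The values named are the highest among tested genes outside the core clock genes and are given as a description.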

How the data were processed

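Leaf mRNA of 12 Arabidopsis samples was sequenced from directional libraries. According to the submitters' processing notes the build was TAIR10, and the tools were HISAT2 2.0.5, StringTie 1.3.3 and fastp. The authors deposited FPKM values per gene; which program counted the reads, with which annotation and strand setting, is not given in the sources used here. FPKM times gene length was a whole multiple of 1 step per library (100% of values above 0 within 0.01), which gave the reads and the depth. Their 3 columns of means equal the means of the libraries and were not used.

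The 18354 genes that reached 1 FPKM in 4 or more libraries were tested as log2(FPKM + 1) in 1 linear model over the 3 genotypes with limma 3.58.1 (eBayes with trend, R 4.3.3), without a replicate block, and p-values were adjusted over these genes after Benjamini and Hochberg with a threshold of 0.05. Fold changes on this scale understate changes of low genes. Tables and figures were made with python 3.11.15, pandas 2.3.3, numpy 2.4.6 and matplotlib 3.10.9. Pairing by replicate number was checked on deviations from genotype means: every same-numbered pair of the overexpressor and *glct2* correlated above 0.1, which was not so for wild types with either mutant. The methods were tested on simulated data. The 10 genes and the lists were chosen with earlier results of these data known. Named were the 10 genes, and in each other list up to 4 called genes with the lowest p per mutant (or the gene with the lowest p). The 4 genes outside the 10 most like *CCA1* and *TOC1* in level and in deviations were named too. Sequences are from RefSeq (TAIR10.1), which matched the deposited start and end of 18134 of 18136 tested genes found there; the window of 1 clock gene is not reported here.

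Alternatives were pseudocounts of 0.1 and 5, no filter and a filter at 5 FPKM, median-of-ratios, quantile and 2 other scalings, voom on the recovered reads, a replicate block, the 2 groups alone, library quality weights, and leaving out each library.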

Additional observations from a re-analysis of the deposited data

Results flagged for a closer look

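A sample far from the others of its group was looked for in each of the 10 genes and 3 genotypes, 30 groups of 4, with Dixon's test, and 2 were found; chance flags about 1 in 20 groups. *GI* stood at 21.2 FPKM in wild-type replicate 2, where the other wild types had 14.1 to 15.0. Without that library the log2 fold change of *GI* was 0.86 in the overexpressor and -0.11 in *glct2*. *PRR7* stood at 29.8 FPKM in *glct2* replicate 3, where the other 3 had 24.9 to 25.4. Without that library its log2 fold change was -0.24 in *glct2* against wild types and 0.38 in the overexpressor against *glct2*. No test call of the 2 genes changed with these libraries left out.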

How the results depend on the processing

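The calls of *LHY*, *CCA1*, *ELF4*, *GI* and *LUX* in the overexpressor against wild types were kept in all 24 alternatives. Of these, median-of-ratios scaling used the same factor for every library and so was no check. The count of clock genes called was 5 to 6 when 1 library was left out and reached 7 with reads as the library size or with quality weights, where *PRR7* (limma adjusted p = 0.0487 and 0.0392) and *TOC1* (0.0112 and 0.0429) passed. Against *glct2* it was 5 to 7, and in *glct2* against wild types 0 to 1, the 1 being *LHY* with quality weights, with a replicate block or without wild-type replicate 2. Over all genes, the count in *glct2* was 201 to 1138 with 1 library left out, 1521 with reads as the library size, 493 with the block and 1841 with quality weights, where the first moved the median of all genes by 0.10 and the split of higher to lower from 357 to 481 to 1279 to 242 (590 to 262 without the 50 highest genes); in the overexpressor it moved the median by 0.12 and the split from 3441 to 3646 to 5788 to 2436. Setting reads as the library size multiplied each library by its ratio of implied size to summed reads. By library, that ratio spanned 0.927 to 0.987 (wild types), 1.022 to 1.056 (overexpressor) and 1.005 to 1.065 (*glct2*). Why this ratio differed between genotypes was not tested. Counts with 1 library left out were 5770 to 7227 in the overexpressor and 4940 to 6541 against *glct2*. The pairs past the threshold were 0 in every alternative run, with 4 to 11 at an unadjusted p under 0.05.

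Values near 0 changed sign without passing: in *glct2* against wild types, *ELF4* under quantile normalization (0.0037), without the 50 highest genes (0.048), with reads as the library size (0.093) and with quality weights (0.016), and over -0.074 to 0.026 with 1 library left out; *ELF3* over -0.057 to 0.066 with 1 left out; and *PRR5* (0.0039) and *TOC1* (0.027) with reads as the library size. In the overexpressor *PRR9* ranged over -0.072 to 0.15 with 1 library left out, and *UBQ10* turned to 0.18 under quantile normalization. Median-of-ratios factors were the same for all libraries (1.00) and changed no call. The deposited values thus already stood on that scale.

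Same-numbered libraries correlated in their deviations at -0.33 to 0.33, above 0.1 in 7 of 12 pairs. All 4 pairs of overexpressor and *glct2* were above 0.1 (0.12 to 0.18), which was not so for wild types with either mutant. Differently numbered pairs of the overexpressor and *glct2* lay at -0.18 to 0.082, and such pairs over all genotypes at -0.39 to 0.35. The labels state no pairing, and whether the numbers pair the libraries was not tested. With the replicate block the counts over all genes were 6656, 493 and 5656, and of the 10 clock genes 5, 1 (*LHY* gained) and 5 (*TOC1* lost); the block changed no other call of the 10. Samples are called biological replicates, but plants per sample are not given in the sources used here.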
